A study of Mus musculus with 12 samples.

Results

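Antiviral effectors are the proteins with which a cell hinders a virus directly. Of 10 genes for such proteins chosen by name, Rsad2, Cmpk2, Mx1, Mx2, Bst2, Ifitm1, Ifitm2, Ifitm3, Ifi44 and Xaf1, 8 were analysed here, found by Entrez identifier among the 17571 genes of the table. Mx1 and Mx2 were not analysed here. A level of at least 1 FPKM (fragments per kilobase of transcript, scaled to the library's total, a level corrected for length) in at least 3 libraries was asked of a gene before testing, which 10412 genes met, among them Rsad2, Ifi44, Xaf1, Bst2, Ifitm2 and Ifitm3. Cmpk2 and Ifitm1 stayed below it and are described without a model.

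Cytosolic DNA is sensed by cGAS, which through STING makes the kinase TBK1 switch on type I interferon. Secreted interferon signals through IFNAR and the kinases JAK1 and TYK2 to transcription factors that bind the interferon-stimulated response element (ISRE) in the promoters of interferon-stimulated genes. The effectors differ in what they do: viperin (Rsad2) makes a chain-terminating nucleotide from CTP, which its neighbour in the genome, the mitochondrial kinase Cmpk2, helps to supply; tetherin (Bst2) holds budding virions at the cell surface; and the IFITM proteins hinder fusion of viral and cellular membranes.

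L929 is a fibroblast line cloned from connective tissue of a C3H/An mouse, so that all 12 libraries come from cells of 1 clone. Cells received the vehicle DMSO or 0.5 μM BX795, an inhibitor of TBK1, for 1 h and were then transfected or not for 6 h with pEGFP-N1, a plasmid that encodes EGFP. The 4 groups of 3 libraries were mock (DMSO, no plasmid), pEGFP-N1 (DMSO and plasmid), BX795 (inhibitor, no plasmid) and BX795 plus pEGFP-N1 (both). Whether mock cells met transfection reagent is not given in the sources used here, and nothing states that the 3 libraries of a group were separate cultures, so p-values measure only the spread between these libraries. Whether a level changed in all cells or in a few cannot be told apart in bulk RNA.

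Library names below are those of the labels, and 2 libraries had values that go against theirs. Dusp6, a feedback gene of ERK signaling chosen after its values were seen, stood at 14.21 to 16.18 FPKM in mock and at 4.64 to 5.81 FPKM in BX795 libraries. It read 5.87 FPKM in the library labelled pEGFP-N1 replicate 2, against 13.12 and 12.34 FPKM in the other two of that group, and 12.60 FPKM in the library labelled BX795 plus pEGFP-N1 replicate 1, against 3.72 and 4.62 FPKM in the other two. Over 10369 tested genes, those left after removing the effectors and the lists of other antiviral effectors, interferon signaling genes and relatives described below (further interferon-responsive genes stayed in), the first of these libraries was closest to BX795 replicate 2 (Pearson r across genes, 0.997) and reached 0.978 at most within its own group; the second was closest to pEGFP-N1 replicate 3 (0.997), with at most 0.986 in its own group. A closest library outside the own group was not particular to these: BX795 replicate 1 and BX795 plus pEGFP-N1 replicate 2, both with inhibitor, were closest to each other (0.997, against 0.994 and 0.986 at most in their own groups), and BX795 plus pEGFP-N1 replicate 3 was closest to BX795 replicate 1 (0.987, against 0.985). Whether labels were exchanged was not tested, and every group value below depends on it; RT-qPCR that the study ran on samples used for sequencing was not analysed here. A further library, BX795 plus pEGFP-N1 replicate 3, stood apart: its FPKM summed to 467348, against 495030 to 513761 in the other 11, and its median log2 difference from the libraries' median was -0.10 for genes with transcripts up to 2597 bases and 0.14 for those over 4228 bases. Results are given as labelled, and again without each of these libraries where that matters. Of 9 fibroblast markers, 7 were above 1 FPKM in all libraries, with Thy1 and Dcn at 0.13 FPKM or less. The 4 epithelial and 3 endothelial markers and 5 of 6 leukocyte markers were below 1 FPKM in all libraries; the exception was Cd68, at 111 to 138 FPKM. Summed leukocyte markers ran from 113 to 119 FPKM in mock, 111 to 135 in pEGFP-N1, 111 to 116 in BX795 and 116 to 138 in BX795 plus pEGFP-N1, and their part in the results below was not tested.

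The effectors differed widely in mock cells, which had received DMSO. Mean mock levels, in FPKM over 3 libraries, fell in the order Ifitm2 (266 ± 5.97, SD), Ifitm3 (161 ± 7.43), Bst2 (36.9 ± 2.53), Xaf1 (1.32 ± 0.297), Ifitm1 (0.463 ± 0.242), Ifi44 (0.183 ± 0.0929), Rsad2 (0.0833 ± 0.0351) and Cmpk2, which was listed at 0. Neighbours in this order did not overlap between libraries down to Ifitm1, while Ifitm1 and Ifi44, and Ifi44 and Rsad2, met at their ends. Ifitm2 stood at percentile 98.5 of all genes in mock, with Ifitm3 at percentile 97.3 and Bst2 at percentile 86.4. With a limit of 1 FPKM, 4 effectors (Rsad2, Cmpk2, Ifi44 and Ifitm1) were near 0 in mock and 4 (Xaf1, Bst2, Ifitm3 and Ifitm2) were already expressed.

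**Figure D1:**
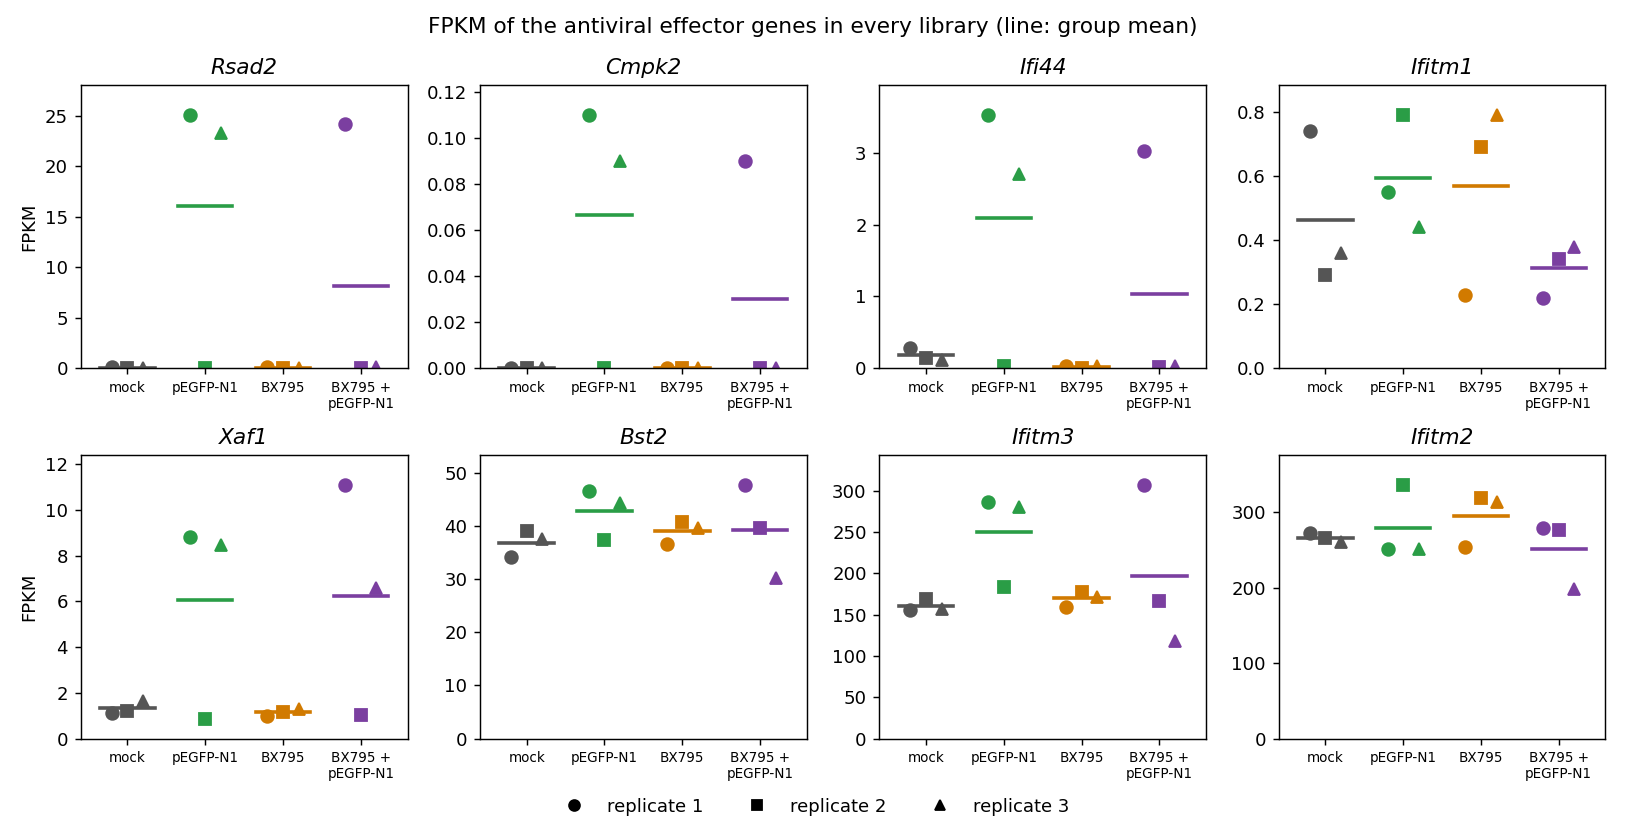
FPKM of the 8 effectors (vertical axes, linear and different in each panel) in the 12 libraries, by labelled group; marker shapes give the replicate number and lines the group means. Rsad2 and Ifi44 are high in the same 3 libraries and near 0 in the other 9, Cmpk2 is above 0 in these 3 but at 0.11 FPKM or less, Xaf1 is high in these 3 and in BX795 plus pEGFP-N1 replicate 3, and Ifitm3 and Bst2 are highest in these 3.

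Rsad2, the gene of viperin, lies at chr12:26442746-26456452 on the minus strand (GRCm38). Its level was 0.12, 0.05 and 0.08 FPKM in mock replicates 1 to 3; 25.05, 0.02 and 23.25 FPKM in pEGFP-N1; 0.09, 0.02 and 0 FPKM in BX795; and 24.22, 0.08 and 0.11 FPKM in BX795 plus pEGFP-N1. Thus it was high in pEGFP-N1 replicates 1 and 3 and in the library labelled BX795 plus pEGFP-N1 replicate 1, and at mock level in the rest, so that both transfected groups overlapped mock. The 3 high libraries stood at 301, 279 and 291 times the mock mean, a mean that rests on values close to the table's last decimal.

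Cmpk2 begins 12751 bases from Rsad2 and is read in the opposite direction (chr12:26469204-26479837, plus strand). It was listed at 0 in 9 libraries and at 0.11 FPKM in pEGFP-N1 replicate 1, 0.09 FPKM in pEGFP-N1 replicate 3 and 0.09 FPKM in the library labelled BX795 plus pEGFP-N1 replicate 1. These are the 3 libraries with high Rsad2, but the level of Cmpk2 stayed far below that of Rsad2 in each of them, and no fold is given against values of 0.

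Ifi44, an interferon-induced cytoplasmic protein (chr3:151730922-151749960, minus strand), followed Rsad2 at a lower level. Its mock levels were 0.29, 0.14 and 0.12 FPKM, with 3.52, 0.04 and 2.71 FPKM in pEGFP-N1, 0.04, 0 and 0.03 FPKM in BX795, and 3.03, 0.02 and 0.04 FPKM in BX795 plus pEGFP-N1. The same 3 libraries were high, at 19.2, 14.8 and 16.5 times the mock mean. All BX795 libraries lay below all mock libraries, and so did the remaining transfected ones.

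Ifitm1 (chr7:140967221-140969825, plus strand) was near 0 in mock as well, but did not share this pattern. It read 0.74, 0.29 and 0.36 FPKM in mock, 0.55, 0.79 and 0.44 FPKM in pEGFP-N1, 0.23, 0.69 and 0.79 FPKM in BX795, and 0.22, 0.34 and 0.38 FPKM in BX795 plus pEGFP-N1. In the library labelled BX795 plus pEGFP-N1 replicate 1, one of the 3 with high Rsad2, it was at its lowest. The BX795 plus pEGFP-N1 libraries were all below the pEGFP-N1 libraries, at the smallest p that 3 against 3 allows (two-sided exact permutation test, p = 0.1); 1.48% of all 17571 genes separated in this direction.

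Xaf1, which encodes a partner of the caspase inhibitor XIAP that favours cell death (chr11:72301629-72313733, plus strand), was just above 1 FPKM in mock, at 1.11, 1.19 and 1.66 FPKM. It read 8.83, 0.87 and 8.47 FPKM in pEGFP-N1, 0.98, 1.14 and 1.31 FPKM in BX795, and 11.08, 1.03 and 6.59 FPKM in BX795 plus pEGFP-N1. Besides the 3 libraries with high Rsad2, where it was at 6.69, 6.42 and 8.39 times the mock mean, Xaf1 was thus high in BX795 plus pEGFP-N1 replicate 3, at 4.99 times, where Rsad2 was at 0.11 FPKM and Ifi44 at 0.04 FPKM. This is the library that stood apart. The longest transcript of Xaf1 has 2597 bases, which puts it among the genes with short transcripts, whose median was low there. The part of transcript length in its value was not tested.

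Among the effectors expressed in mock, Ifitm3 (chr7:141009586-141010770, minus strand) differed most in FPKM. Its mock libraries read 155.69, 169.34 and 157.43 FPKM, and it was at 286.85, 183.85 and 281.01 FPKM in pEGFP-N1, 159.62, 178.07 and 171.26 FPKM in BX795, and 306.64, 167.04 and 118.63 FPKM in BX795 plus pEGFP-N1. In the 3 libraries with high Rsad2 it stood at 1.78, 1.75 and 1.91 times the mock mean. In FPKM these are gains of 126, 120 and 146, against 25.0, 23.2 and 24.1 for Rsad2 in the same libraries: the larger ratio belonged to Rsad2 and the larger difference in FPKM to Ifitm3.

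Bst2 (chr8:71534255-71537456, minus strand) moved little around a high baseline, at 34.05, 38.95 and 37.58 FPKM in mock, 46.63, 37.39 and 44.37 FPKM in pEGFP-N1, 36.62, 40.65 and 39.63 FPKM in BX795, and 47.60, 39.66 and 30.14 FPKM in BX795 plus pEGFP-N1. Its 3 highest libraries were those with high Rsad2, at 1.27, 1.20 and 1.29 times the mock mean.

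Ifitm2 (chr7:140954837-140955987, minus strand) was the most abundant effector in mock and had no such pattern. It read 272.44, 265.29 and 260.58 FPKM in mock, 250.80, 335.46 and 251.46 FPKM in pEGFP-N1, 253.27, 318.40 and 313.15 FPKM in BX795, and 278.76, 276.14 and 198.36 FPKM in BX795 plus pEGFP-N1. Ifitm3 exceeded Ifitm2 in the 3 libraries with high Rsad2, and Ifitm2 exceeded Ifitm3 in the other 9. Bst2, Ifitm2 and Ifitm3 all had their lowest value of the 12 libraries in BX795 plus pEGFP-N1 replicate 3; their longest transcripts are 792, 655 and 678 bases, and genes with short transcripts were low in that library, as given above; the part of this in the low values was not tested. Of the 31-base words in the GENCODE transcripts of Ifitm2, 55.5% also occur in transcripts of other genes, on either strand, as do 20.5% of those of Ifitm3 and 11.6% of those of Ifitm1. That share was 3.27% for Xaf1, 0.739% for Rsad2, 0.240% for Ifi44 and 0 for Bst2 and Cmpk2. How reads were divided among such transcripts can make the levels of the Ifitm genes uncertain. Whether the authors' reference held the same transcripts is not known here, and the effect was not tested.

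**Figure D2:**
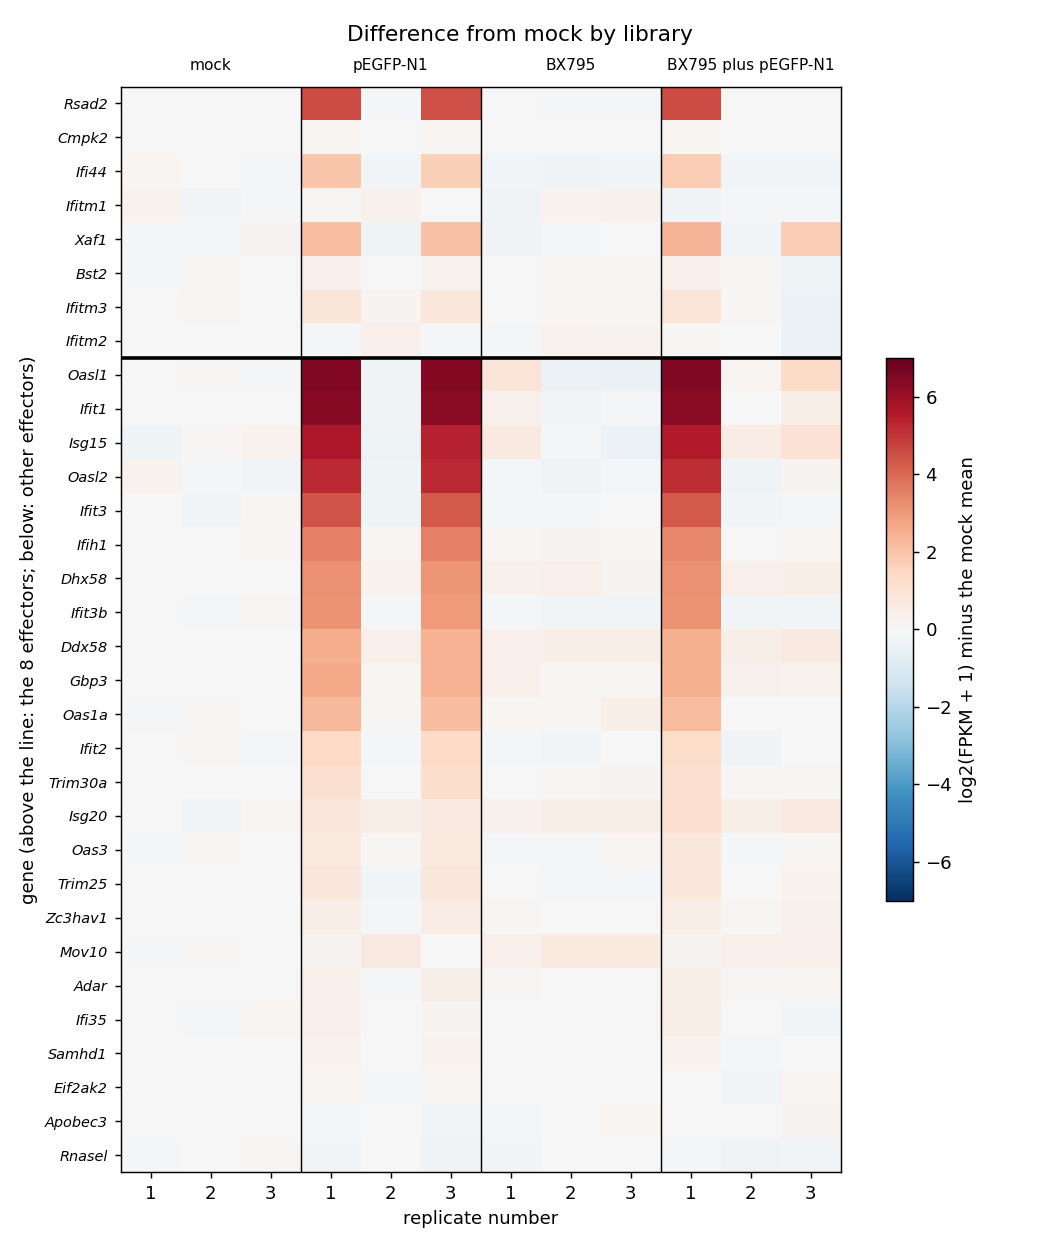
Difference of log2(FPKM + 1) from the mock mean (color) in each library (columns, by labelled group and replicate), for the 8 effectors above the horizontal line and 24 tested other antiviral effectors below it, sorted by the pEGFP-N1 minus mock difference. The red columns are pEGFP-N1 replicates 1 and 3 and BX795 plus pEGFP-N1 replicate 1; Xaf1 is also red in BX795 plus pEGFP-N1 replicate 3.

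The first comparison asked what the plasmid did without inhibitor. On the log2(FPKM + 1) scale, which understates the change of low genes, pEGFP-N1 minus mock was 3.0 (SE 1.27) for Rsad2, 1.27 (SE 0.66) for Xaf1, 1.13 (SE 0.56) for Ifi44, 0.61 (SE 0.27) for Ifitm3, 0.21 (SE 0.14) for Bst2 and 0.06 (SE 0.15) for Ifitm2. None of the 6 tested effectors passed an adjusted p under 0.05 in limma (Benjamini-Hochberg over all tested genes; lowest adjusted p = 0.995), against 0.0672% of all tested genes. At an unadjusted p under 0.05 in limma there were 2, Rsad2 (0.0368) and Ifitm3 (0.0443), against 4.69% of all tested genes. Ifitm3 was the one effector whose pEGFP-N1 libraries all lay above mock (two-sided exact permutation p = 0.1, the smallest 3 against 3 can give), as did 5.52% of all tested genes; for Rsad2 the exact permutation p was 0.4. The effectors' median difference was 0.87, beside -0.003 over all tested genes. Rsad2 and Ifi44 could pass the filter only through the 3 libraries in which they are high and so had to differ between libraries, and counts and medians over the tested effectors support nothing about the set. The library labelled pEGFP-N1 replicate 2 set much of the spread: without it the differences were 4.54 for Rsad2, 2.06 for Xaf1, 1.79 for Ifi44, 0.82 for Ifitm3 and 0.30 for Bst2, and Ifitm2 turned from higher to lower, at -0.08. Over all omissions Xaf1 ran from 0.87 to 2.06, Ifitm3 from 0.50 to 0.82 and Bst2 from 0.14 to 0.30. Without pEGFP-N1 replicate 2 the lowest adjusted p in limma was 0.0929, for Rsad2, and still none passed.

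**Figure D3:**
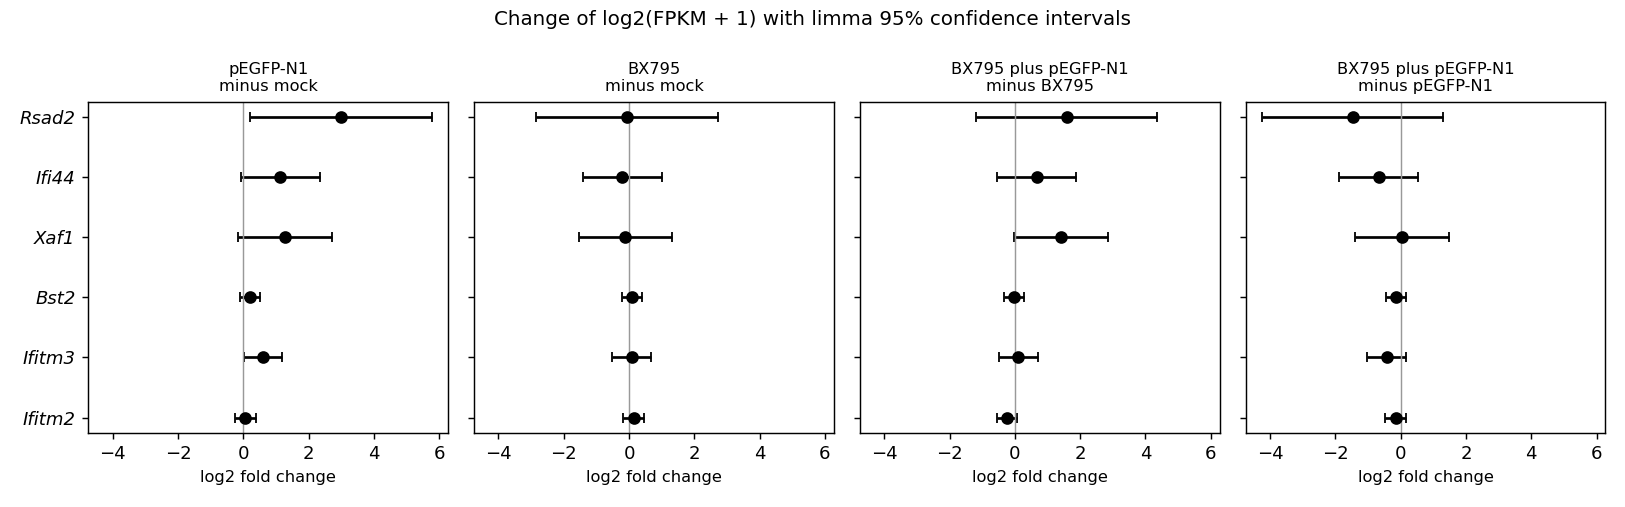
Difference of log2(FPKM + 1) (horizontal axes) for the 6 tested effectors in 4 comparisons of labelled groups of 3 libraries each; points are limma estimates from all 12 libraries and bars their 95% confidence intervals. Intervals are widest for Rsad2 (0.22 to 5.77 in pEGFP-N1 minus mock) and narrow for Bst2 (-0.10 to 0.51) and Ifitm2 (-0.26 to 0.38).

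BX795 without plasmid was compared with mock to see what the inhibitor did alone. Differences were -0.06 for Rsad2 (95% confidence interval -2.84 to 2.71), -0.21 for Ifi44 (-1.42 to 1.01), -0.11 for Xaf1 (-1.54 to 1.32), 0.08 for Bst2 (-0.22 to 0.38), 0.14 for Ifitm2 (-0.18 to 0.46) and 0.08 for Ifitm3 (-0.51 to 0.67). No effector passed the adjusted threshold (limma adjusted p 0.651 to 0.984; 0.0672% of all tested genes passed) or an unadjusted p under 0.05 (13.8% of all tested genes). Ifi44, with 0 to 0.04 FPKM in BX795 against 0.12 to 0.29 FPKM in mock, was the 1 effector whose groups did not overlap (two-sided exact permutation p = 0.1), as was so for 16.2% of all tested genes in that direction. The wide intervals of Rsad2, Ifi44 and Xaf1 come with a spread shared by all 4 groups; fitted on BX795 and mock alone, the standard error for Rsad2 was 0.10 in place of 1.27, and its adjusted p in limma 0.676; in that fit 2150 of the 10412 genes passed, in place of 7, and no effector did. With 1 library left out the differences ran from -0.10 to -0.039 for Rsad2, -0.25 to -0.14 for Ifi44, -0.17 to -0.0071 for Xaf1, 0.024 to 0.12 for Bst2, 0.082 to 0.25 for Ifitm2 and 0.041 to 0.12 for Ifitm3, so no sign turned. The median of the 6 differences was 0.01, beside 0.03 for all tested genes.

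With the inhibitor present, plasmid minus no plasmid (BX795 plus pEGFP-N1 minus BX795) was 1.59 (SE 1.27) for Rsad2, 1.42 (SE 0.66) for Xaf1, 0.67 (SE 0.56) for Ifi44, 0.11 (SE 0.27) for Ifitm3, -0.02 (SE 0.14) for Bst2 and -0.24 (SE 0.15) for Ifitm2. No effector passed in limma, adjusted (lowest 0.604; 0% of all tested genes) or unadjusted (5.56% of all tested genes), and Xaf1 came nearest (0.0525 unadjusted in limma; two-sided exact permutation p = 0.3). The median was 0.39, beside -0.02 for all tested genes. Rsad2 and Ifi44 owed their positive differences to the library labelled BX795 plus pEGFP-N1 replicate 1, and without it both fell below the filter. Without that library Xaf1 was at 0.88, Bst2 at -0.17 and Ifitm2 at -0.32, and Ifitm3 changed sign to -0.27. The other omissions moved the effectors in both directions. Without BX795 plus pEGFP-N1 replicate 2, Xaf1 was at 2.16, Rsad2 at 2.35, Ifi44 at 1.0 and Ifitm3 at 0.17, and without replicate 3, Rsad2 was at 2.33, Ifi44 at 0.99 and Ifitm3 at 0.42, Xaf1 at 1.21, Ifitm2 was at -0.080 and Bst2 turned to 0.15. Over all omissions Ifitm2 ran from -0.35 (without BX795 replicate 1) to -0.080.

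The inhibitor's effect on transfected cells was given by BX795 plus pEGFP-N1 minus pEGFP-N1. It was -1.47 (SE 1.27) for Rsad2, -0.68 (SE 0.56) for Ifi44, -0.43 (SE 0.27) for Ifitm3, -0.16 (SE 0.15) for Ifitm2, -0.14 (SE 0.14) for Bst2 and 0.03 (SE 0.66) for Xaf1, with a median of -0.29 beside 0.01 for all tested genes. None passed in limma at the adjusted (lowest 0.959; 0% of all tested genes) or the unadjusted threshold (1.59% of all tested genes). Both libraries that go against their labels enter this comparison. Without the library labelled pEGFP-N1 replicate 2 the differences were -3.01 for Rsad2, -1.34 for Ifi44, -0.76 for Xaf1 and -0.63 for Ifitm3 (limma adjusted p 0.401 or more). Without the library labelled BX795 plus pEGFP-N1 replicate 1, Ifitm3 was at -0.80 (limma adjusted p = 0.178), Xaf1 at -0.51 and Bst2 at -0.29. The other omissions moved the effectors in both directions. Without BX795 plus pEGFP-N1 replicate 2, Rsad2 was at -0.71, Ifi44 at -0.34, Ifitm2 at -0.23, Bst2 at -0.16 and Xaf1 at 0.78, and without replicate 3, Rsad2 was at -0.73, Ifi44 at -0.36, Ifitm3 at -0.12, Bst2 at 0.028 and Ifitm2 at 0.0045. Ifitm2 was at -0.23 without pEGFP-N1 replicate 1, -0.22 without replicate 3 and -0.017 without replicate 2, and Bst2 at -0.080 without replicate 1. Xaf1 thus had no stable sign, and it was at -0.17 without BX795 plus pEGFP-N1 replicate 3.

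Whether the plasmid's effect differed with and without inhibitor was tested directly. The difference of the plasmid effects was 1.41 (SE 1.80) for Rsad2, 0.50 (SE 0.38) for Ifitm3, 0.47 (SE 0.79) for Ifi44, 0.30 (SE 0.21) for Ifitm2, 0.22 (SE 0.20) for Bst2 and -0.14 (SE 0.93) for Xaf1, and none passed in limma, adjusted (lowest 0.842; 0% of all tested genes) or unadjusted (3.91% of all tested genes); the median was 0.38, beside 0.02 for all tested genes. With 1 library left out it ran from 0.64 to 2.95 for Rsad2 and 0.13 to 1.13 for Ifi44, neither of which has a value without one of the 3 libraries where they are high. It ran from 0.19 to 0.87 for Ifitm3, 0.14 to 0.40 for Ifitm2 and 0.051 to 0.37 for Bst2, and for Xaf1 it turned sign, from -0.89 to 0.65. Averaged over both arms, 6 transfected against 6 other libraries, the plasmid effect was 2.29 for Rsad2, 1.35 for Xaf1, 0.90 for Ifi44, 0.36 for Ifitm3, 0.09 for Bst2 and -0.09 for Ifitm2 (median 0.63, beside -0.01 for all tested genes). With 1 library left out it ran from 2.28 to 3.06 for Rsad2, 1.08 to 1.74 for Xaf1, 0.88 to 1.23 for Ifi44, 0.17 to 0.51 for Ifitm3, 0.020 to 0.18 for Bst2 and -0.16 to -0.012 for Ifitm2. None passed the adjusted threshold (lowest 0.788 in limma, with 0% of all tested genes passing), and 3 had an unadjusted limma p under 0.05, Xaf1 (0.0137), Rsad2 (0.0260) and Ifi44 (0.0419), against 6.12% of all tested genes. Rsad2 and Ifi44 had entered the test only through the 3 libraries where they are high, all labelled as transfected, so this count supports nothing about the set. The exact permutation test over 6 and 6 libraries gave a two-sided p of 0.0584 for Xaf1, 0.0758 for Rsad2, 0.130 for Ifitm3 and 0.154 for Ifi44. Without the library labelled pEGFP-N1 replicate 2, Rsad2 (3.06, limma adjusted p = 0.0432) and Xaf1 (1.74, limma adjusted p = 0.0401) were among 363 of 10392 genes that passed. Rsad2, at 0.02 FPKM in the omitted library, had entered the test only through the 3 libraries where it is high, so its call supports nothing. Xaf1 had its lowest value of all 12 libraries in the omitted one (0.87 FPKM). The omission thus favoured the call of Xaf1, which supports nothing either.

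**Figure D4:**
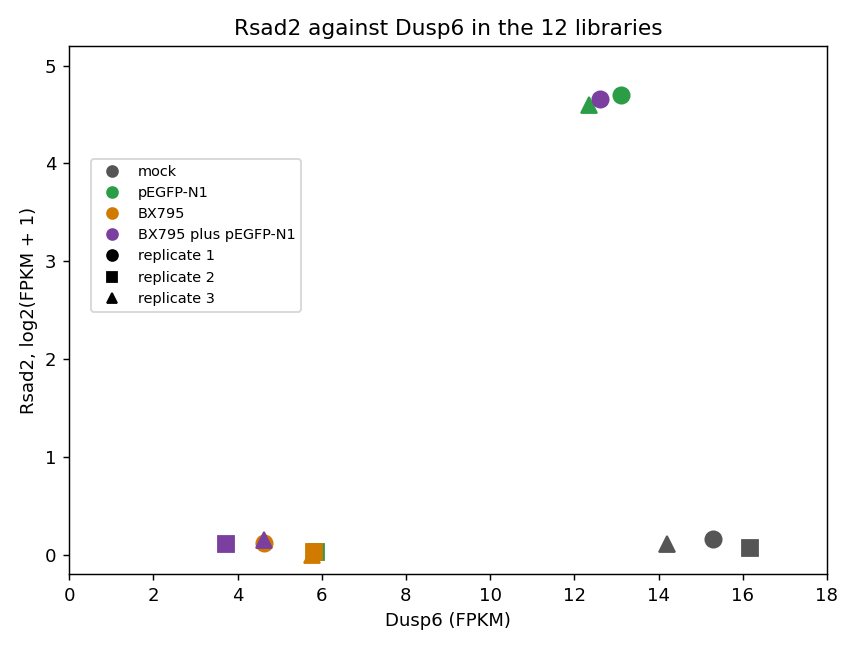
Rsad2, as log2(FPKM + 1), against Dusp6 in FPKM, 1 point per library, colored by labelled group with marker shape for the replicate. The 3 libraries with high Rsad2 have Dusp6 at 12.34 to 13.12 FPKM, and the library labelled pEGFP-N1 replicate 2 lies with the BX795 libraries.

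In the plot of Rsad2 against Dusp6, no library with Dusp6 under 6 FPKM had Rsad2 above 0.11 FPKM. A check by rule took the 3 genes that limma called lower in BX795 than in mock: Errfi1, Epha2 and Abca1 (adjusted p 0.0109, 0.0160 and 0.0209). In the transfected libraries they separated less than Dusp6. Errfi1, a feedback inhibitor of the EGF receptor, read 18.45, 15.43 and 19.21 FPKM in pEGFP-N1 and 18.80, 15.28 and 16.98 FPKM in BX795 plus pEGFP-N1, so the library labelled pEGFP-N1 replicate 2 was the lowest of its group and the library labelled BX795 plus pEGFP-N1 replicate 1 the highest of its own. The same held for Epha2, at 22.47, 20.16 and 21.66 FPKM in pEGFP-N1 and 22.01, 16.49 and 16.82 FPKM in BX795 plus pEGFP-N1. Abca1 did not set the library labelled pEGFP-N1 replicate 2 apart, with 1.56, 1.57 and 1.5 FPKM in pEGFP-N1, but was highest of its group in the library labelled BX795 plus pEGFP-N1 replicate 1 (1.42 FPKM, against 1.07 and 1.26 FPKM). The 4 genes that limma called higher in BX795 than in mock were also higher than mock in all transfected libraries, and did not sort the libraries by inhibitor alike (Tlr2, Tapbp, Ccl2 and Gm40378). Tlr2 read 14.00 to 21.97 FPKM in BX795 and 17.93, 13.59 and 17.76 FPKM in pEGFP-N1, and Tapbp and Ccl2 too were lowest in the library labelled pEGFP-N1 replicate 2 within that group. Gm40378 was highest there (1.63 FPKM, against 0.72 FPKM in both others), while the library labelled BX795 plus pEGFP-N1 replicate 1 (1.51 FPKM) lay with its own group (1.88 and 1.49 FPKM). In that library Tapbp read 87.02 FPKM, against 69.62 and 64.39 FPKM in its group and 80.9 and 79.61 FPKM in pEGFP-N1 replicates 1 and 3, while Tlr2 was the lowest of its group (19.34 FPKM) and Ccl2 lay between the other two (895.19 FPKM).

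The genes most like Rsad2 over the 12 libraries, by Pearson's r of log2(FPKM + 1), were Ifit1, Ifit3b, Ifit3, Ifih1 and Oasl2, all with r of 0.998 to 0.999; these values rest on the same 3 high libraries. Those most like Ifitm3 were Sectm1a, Htra2, Pacsin3, Tcirg1 and Sox9 (r 0.963 to 0.971). Sox9, a transcription factor, had 4.82 to 4.95 FPKM in mock, 15.39, 14.93 and 15.69 FPKM in the 3 libraries with high Rsad2 and 4.06 FPKM in BX795 plus pEGFP-N1 replicate 3. Ifitm3 and its nearest genes thus share a low value in the library that stood apart as well as high values in those with high Rsad2.

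Of 29 other interferon-induced antiviral effectors, 27 were analysed here and 24 tested. In pEGFP-N1 minus mock none was called in either direction by limma at the adjusted threshold, 15 were higher at an unadjusted p under 0.05 and none lower (4.69% of all tested genes passed that threshold in either direction), and their median was 0.84, beside -0.003 for all tested genes. Ifit1, Ifit3, Ifit3b, Oas3, Oasl2, Gbp3 and Ifih1 reached 1 FPKM only in the 3 libraries with high Rsad2, so this count and median are partly fixed by the filter and support nothing about the list. The largest differences of pEGFP-N1 minus mock belonged to Oasl1 (4.21), Ifit1 (4.14), which binds viral RNA lacking host cap marks, and the ubiquitin-like Isg15 (3.56). Of 10 genes of the interferon signaling pathway, all tested, none was called by limma in pEGFP-N1 minus mock, 3 were higher at an unadjusted p under 0.05 (against the same 4.69%), and the median was 0.31, beside the same -0.003. Stat2, a transcription factor of this pathway, differed most (1.25), at 5.12 to 5.87 FPKM in mock and at 21.06, 6.79 and 20.61 FPKM in pEGFP-N1. It was followed by Usp18 (0.99), which removes Isg15 and dampens IFNAR, and by the factor Irf7 (0.64). Usp18 reached 1 FPKM only in the 3 libraries with high Rsad2, and Irf7 only in these and, at 1.0 FPKM, in pEGFP-N1 replicate 2, so here too the filter partly fixes the count, the median and these 2 differences, which support nothing about the list. Of 9 listed relatives of the effectors, 7 were analysed here and 3 tested, with differences near 0: Cmpk1 (-0.09), a cytosolic relative of Cmpk2, and the dynamins Dnm1l (-0.04) and Dnm2 (0.01).

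Promoters were read from RefSeq (GRCm38.p6), which had an entry for all 8 effectors, over 250 bases before and 50 after the start. The core of an ISRE was searched as GAAANNGAAA on both strands, matches overlapping one another included, and was found in 4 of the 8, Rsad2, Bst2, Ifitm2 and Ifitm3, against 3.44% of 32851 promoters. Rsad2 and Bst2 are shown since they had a match each at a similar distance from the start, but a mock level near 0 in the first and of 36.9 FPKM in the second. Capitals mark the ISRE matches.
Rsad2 (chr12:26456453-26456702, minus strand, 250 bases before the start): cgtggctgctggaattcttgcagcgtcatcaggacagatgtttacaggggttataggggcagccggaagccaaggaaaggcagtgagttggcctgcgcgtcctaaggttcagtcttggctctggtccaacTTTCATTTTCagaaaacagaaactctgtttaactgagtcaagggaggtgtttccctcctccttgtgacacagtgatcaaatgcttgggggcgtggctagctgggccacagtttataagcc
Bst2 (chr8:71537473-71537722, minus strand, 250 bases before the start): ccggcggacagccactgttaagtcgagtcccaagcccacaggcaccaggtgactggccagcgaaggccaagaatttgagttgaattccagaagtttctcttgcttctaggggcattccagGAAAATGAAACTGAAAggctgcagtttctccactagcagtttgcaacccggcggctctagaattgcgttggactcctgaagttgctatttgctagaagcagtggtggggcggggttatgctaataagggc
The match of Rsad2, in the reverse orientation, covers positions -120 to -111, and the overlapping matches of Bst2 cover -130 to -115. The Ifitm genes are shown since the first match of Ifitm3 and the match of Ifitm2 have the same letters, though Ifitm3 was higher in the 3 libraries with high Rsad2 and Ifitm2 was not.
Ifitm2 (chr7:140955988-140956017, minus strand, match from position -46): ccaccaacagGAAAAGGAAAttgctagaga
Ifitm3 (chr7:141010723-141010752, minus strand, match from position 3): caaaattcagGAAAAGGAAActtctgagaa
Ifitm3 (chr7:141010706-141010735, minus strand, match from position 20): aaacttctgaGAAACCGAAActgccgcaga
Cmpk2, Ifi44, Xaf1 and Ifitm1 had no match in this window. Matches were thus present both in an effector near 0 in mock (Rsad2) and in highly expressed ones (Bst2, Ifitm2 and Ifitm3). Among the effectors high in the 3 libraries, Ifi44 and Xaf1 had no exact match. Variants of the searched string were not counted, so a missing match does not show that a promoter lacks the element. Whether the element follows the levels was not tested.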

How the data were processed

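RNA of L929 cells was sequenced on a BGISEQ-500. The authors aligned reads to GRCm38.p5 with Bowtie2 2.2.5 and estimated levels with RSEM, and the deposited values are FPKM per gene, rounded to 2 decimals. Read totals are not part of FPKM, which leaves library depth unknown; in 270 low genes, 35.2% of 420 values lay within 0.1 of a whole multiple of the gene's smallest, and whole reads were not recovered. Groups and replicate numbers came from the sample labels. Of the 66 pairs of libraries, 0 held identical values.

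Levels were analysed as log2(FPKM + 1) with limma 3.58.1 in R 4.3.3 (4 group means, moderated variances with a trend), for the 10412 genes that reached 1 FPKM in 3 or more libraries, with Benjamini-Hochberg adjustment over all of them and calls at an adjusted p under 0.05. The study set its thresholds (false discovery rate 0.001 and a log2 fold change of 2) for PossionDis, a test built on the Poisson distribution. That test was not run here, so its calls were not repeated. At these thresholds limma called no gene in any comparison, while 166 to 1442 genes had an unadjusted p under 0.05. Single effectors were also compared by two-sided exact permutation tests over libraries, which 3 against 3 cannot take below 0.1. Comparisons share groups, so they are not independent. The model was tested on simulated data. Gene positions are from GENCODE (GRCm38). A further promoter motif that was searched is not reported here. All effectors were named, with up to 3 genes of each further list by the size of pEGFP-N1 minus mock; Dusp6 was added after its values were seen. The effectors and lists were chosen with earlier results of these data known. Alternatives were a pseudocount of 0.1, no filter, FPKM rescaled to TPM, quantile normalization, limma without the trend, fits of the 2 groups in question alone, a block for the replicate number, and the omission of each library in turn.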

Additional observations from a re-analysis of the deposited data

How the results depend on the processing

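No effector was called in any of the 6 comparisons under any alternative run, with 1 exception: for the mean plasmid effect, leaving out 1 library gave 0 to 2 calls. The 2 were Rsad2 and Xaf1 without pEGFP-N1 replicate 2, where 363 of 10392 genes passed. Each omission took out 1 library, so at least 1 of the 2 libraries that go against their labels always stayed in. A fit without both was not run, and the lack of calls does not show what it would give. Some effectors turned sign, among them Xaf1 in the difference of the plasmid effects (-0.89 to 0.65 with 1 library left out). With 1 library left out, Ifitm2 in pEGFP-N1 minus mock ran from -0.083 (without pEGFP-N1 replicate 2) to 0.13. In BX795 plus pEGFP-N1 minus BX795, Bst2 ran from -0.17 to 0.15 (without BX795 plus pEGFP-N1 replicate 3; also positive, 0.014, without BX795 replicate 2 and, at 0.016, with TPM) and Ifitm3 from -0.27 (without BX795 plus pEGFP-N1 replicate 1) to 0.42. In BX795 plus pEGFP-N1 minus pEGFP-N1, Bst2 ran from -0.29 to 0.028 and Ifitm2 from -0.24 to 0.0045 (both positive without BX795 plus pEGFP-N1 replicate 3), and Xaf1 from -0.76 to 0.78, negative without pEGFP-N1 replicate 2 (-0.76), BX795 plus pEGFP-N1 replicate 1 (-0.51) or replicate 3 (-0.17). The cause was not tested. A pseudocount of 0.1 took pEGFP-N1 minus mock to 4.51 for Rsad2, 2.04 for Ifi44 and 1.59 for Xaf1, so that Ifi44 then exceeded Xaf1, as with TPM (1.49 against 1.42). It also took BX795 minus mock to -0.46 for Rsad2, -1.17 for Ifi44 and -0.18 for Xaf1, BX795 plus pEGFP-N1 minus BX795 to 2.89 for Rsad2 and 1.62 for Ifi44, and BX795 plus pEGFP-N1 minus pEGFP-N1 to -2.09 for Rsad2 and -1.59 for Ifi44. Leaving out any of the 3 libraries with high Rsad2 dropped Rsad2 and Ifi44 below the filter, so they have no value there.

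Over all genes, calls in pEGFP-N1 minus mock numbered 7, 2 to 8 with other settings and 0 to 17 with 1 library left out, the 17 without pEGFP-N1 replicate 2 and the 0 without mock replicate 1 or 3 or pEGFP-N1 replicate 1 or 3. In BX795 minus mock they numbered 7, up to 2150 with only the groups compared (no effector among them) and 0 to 156 with 1 library left out, the 156 again without pEGFP-N1 replicate 2, 82 without BX795 plus pEGFP-N1 replicate 1, and the 0 without any mock library or BX795 replicate 2. In the mean plasmid effect they went from 0 to 363 without pEGFP-N1 replicate 2. Same-numbered libraries had a mean r of 0.115 over 18 pairs (-0.389 to 0.635, 6 over 0.1, all among numbers 1 and 2 of the treated groups), and others a mean of -0.065; not every pair was over 0.1, so the numbers were not taken to pair the libraries. With the replicate number as a block, 0 effectors were called in each comparison, and 5 and 7 genes in all in pEGFP-N1 minus mock and BX795 minus mock. Depth is unknown, and levels under 1 FPKM, which hold for Cmpk2 and Ifitm1 in all libraries, cannot be given an error from counting.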
